A study of Mus musculus with 8 samples.

Results

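The potassium channel genes measured here are the mouse genes whose symbol begins with Kcn and a letter and that had at least 10 reads in at least 4 of the 8 libraries. Of 18395 genes in the table, 88 carried such a symbol and 44 of these met the count rule. They comprised 6 2-pore-domain channels, 5 inward rectifiers, 19 voltage-gated pore subunits, 5 channels opened by calcium or sodium, 8 auxiliary subunits and Kcnq1ot1, a noncoding RNA antisense to Kcnq1 that encodes no channel. Adipose tissue was sequenced from 4 control samples (WT) and 4 samples from mice whose brown adipocytes had been depleted of Kindlin-2 (KO). Kindlin-2 is an integrin-binding adhesion protein encoded by Fermt2. All mice of both groups had spent 6 hours at 4 °C, so no sample shows the tissue without cold. The labels name neither the fat depot nor the mice's sex, age, strain or Cre driver, nor what alleles the WT mice carried. They also leave unsaid whether replicates came from different animals, so p-values here reflect only the variation among these samples, which may be technical.

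Potassium channels let potassium leave the cell and thereby hold the membrane potential negative. Leak channels of the 2-pore-domain family set the resting potential, inward rectifiers stabilise it, and voltage-gated channels repolarise the membrane after it has been depolarised. In brown adipocytes noradrenaline depolarises the membrane, and the leak channel encoded by Kcnk3 is known as a brake on heat production that works against adrenergic signalling. Whole adipose tissue also holds vessels, nerves and immune cells, which express other members of the family, and in bulk tissue fewer cells of a type and less RNA per cell cannot be told apart.

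Library totals ranged from 33672272 to 43253559 reads assigned to genes. Levels are given as CPM, a gene's reads relative to the library total after TMM scaling, a correction for library composition. The targeted gene Fermt2 read 201 to 244 CPM in WT and 132 to 192 CPM in KO, with a log2 difference (KO minus WT) of -0.45 ± 0.14 (SE) and an edgeR adjusted p of 0.134. The brown adipocyte markers were abundant in every library, at a summed 13400 to 14600 CPM in WT and 7720 to 10600 CPM in KO. WT replicate 3 and KO replicate 2 stood apart. The 15 skeletal muscle markers summed to 48400 CPM in WT replicate 3 and to between 5.61 and 326 CPM in the other 7 libraries. The 10 T and NK cell markers summed to 169 CPM in KO replicate 2 and to between 3.37 and 36.1 CPM elsewhere. Results are therefore given with all 8 libraries and with the 6 that remain when this pair is left out.

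With all 8 libraries no potassium channel gene passed the test. edgeR's quasi-likelihood test covered 43 of the 44 members and called 0 at an adjusted p under 0.05 (smallest adjusted p 0.123, for Kcne3), where 0.0% of all 13901 tested genes were called. At an unadjusted p under 0.05, 5 members lay higher in KO (11.6%, against 10.4% of all genes) and 6 lay lower (14.0%, against 11.1%). The members' median log2 difference was 0.04, beside 0.00 over all tested genes. With 6 libraries 2 members, Kcnc4 and Kcne3, were called higher in KO (4.65% of 43, against 3.32% of all genes called in either direction and 1.82% called higher) and 0 were called lower (against 1.5%). At an unadjusted p under 0.05 the 6-library counts were 7 higher (16.3%, against 11.7%) and 4 lower (9.30%, against 11.4%). DESeq2 on all 8 libraries called 2 of the 32 members with an adjusted p, Kcnn1 and Kcnj11, both lower in KO (6.25%, against 8.71% of all genes called in either direction and 4.71% called lower). limma-voom with quality weights, which gives deviating libraries less weight, called 2 members, among them Kcne3 (2.12, adjusted p = 0.0334), beside 6.55% of all genes. Each count of called members is at most 2.

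Few members separated the genotypes completely in TMM-scaled CPM. All 4 KO libraries lay above all 4 WT libraries for Kcna1 (1 of 44 members, 2.27%, against 5.80% of all tested genes) and below them for 2 members, Kcnn1 among them (2 of 44, 4.55%, against 7.56%). With 6 libraries, all 3 KO libraries lay above all 3 WT libraries for 10 of 44 members (22.7%, against 15.4% of all genes) and below them for 4 (9.09%, against 15.3%). WT replicate 3 was the highest library for 13 of the 44 members and the lowest for 6.

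**Figure D1:**
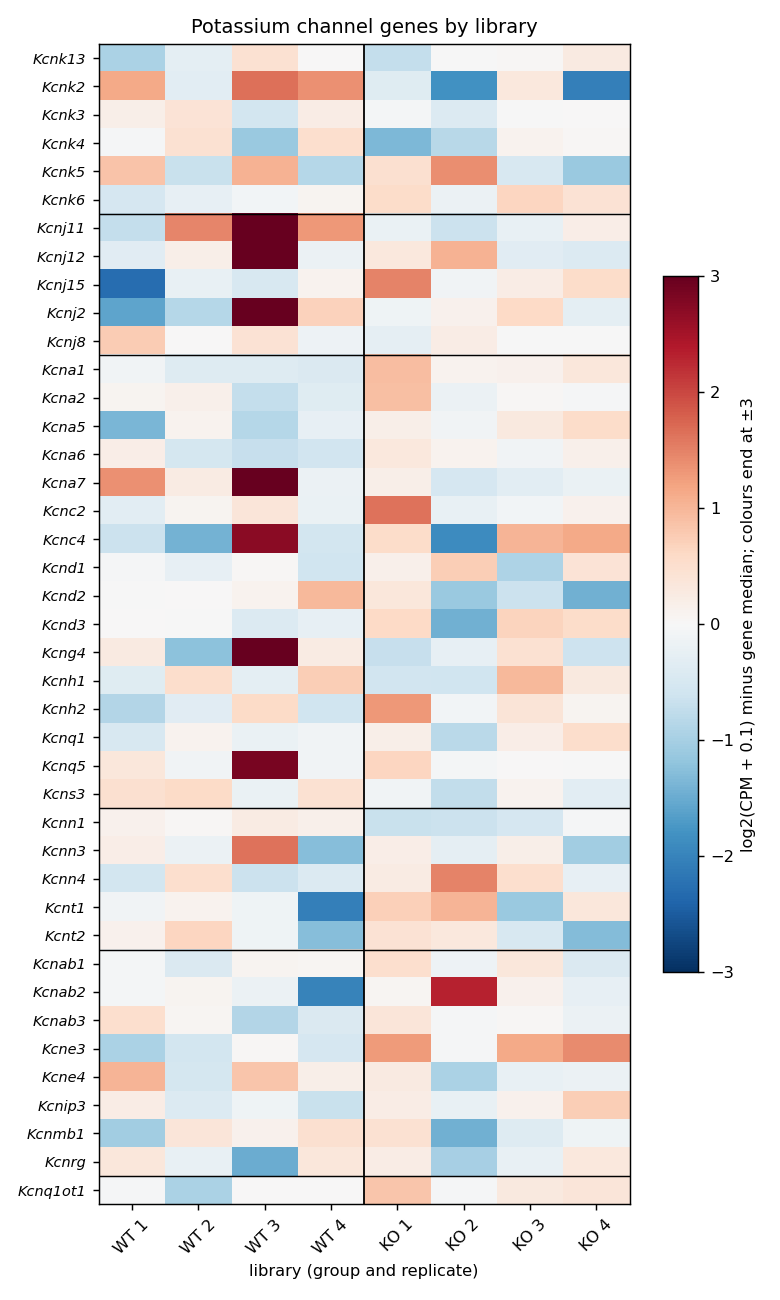
Level of 41 of the 44 potassium channel genes in each library, as log2(CPM + 0.1) minus the gene's median over the 8 libraries, with horizontal lines between the classes. The darkest cells include the muscle channel genes Kcnj11, Kcnj12, Kcnj2 and Kcna7 in the column of WT replicate 3, and Kcnab2 stands out in KO replicate 2. Colours are cut off at both ends of the scale, so equally dark cells can differ in value.

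Kcnk3 encodes the acid-sensitive leak channel of brown adipocytes and was by far the most abundant member. Per kilobase of exon it averaged 194 CPM over the WT libraries and 167 over the KO libraries, and the next member, Kcna5, averaged 16.9 and 28.3 CPM per kilobase. Kcnk3 alone took between 57.2% and 80.7% of all reads assigned to the 44 members in a library. Only 14 members exceeded 1 CPM per kilobase in WT, and for several of these, Kcnj11, Kcna7, Kcnj12 and Kcnj2 among them, the WT mean rested on WT replicate 3.

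**Figure D2:**
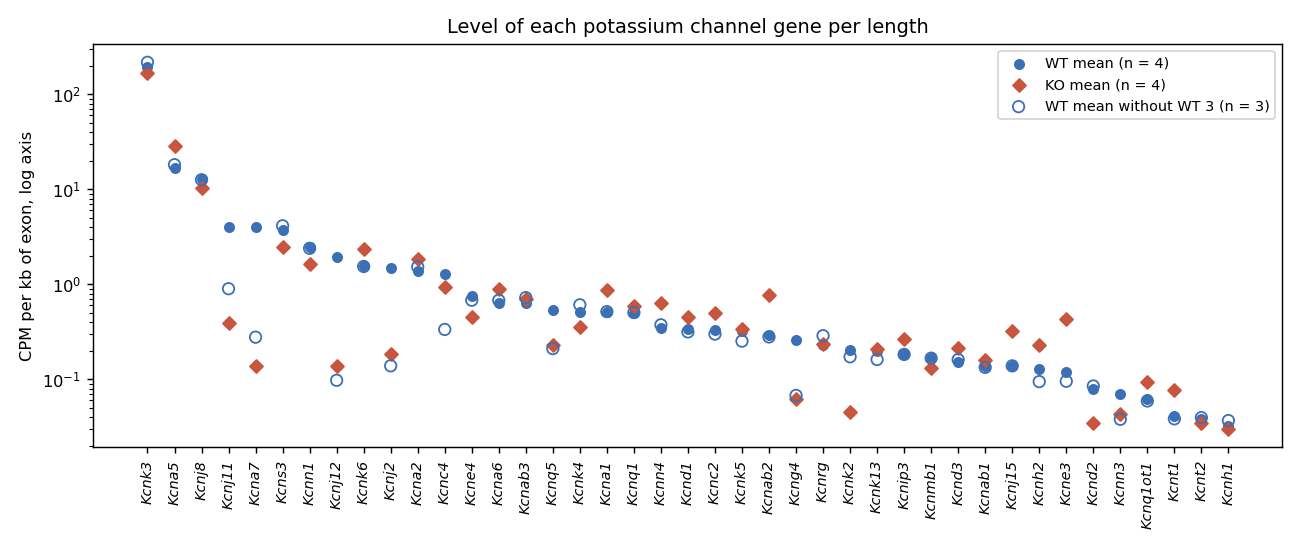
Mean level of 41 members per kilobase of exon on a log axis, ordered by the WT mean, with filled circles for WT, diamonds for KO and open circles for WT without replicate 3. Kcnk3, at 194 CPM per kilobase in WT, lies 11.5 times above the next member, and the open circles of Kcnj11, Kcna7, Kcnj12 and Kcnj2 fall far below the filled ones.

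Kcnk3 (ENSMUSG00000049265) read 810, 953, 488 and 836 CPM in WT replicates 1 to 4 and 689, 541, 707 and 723 CPM in KO replicates 1 to 4. The groups overlapped because WT replicate 3 was the lowest of all 8 libraries, while the other WT libraries lay above every KO library. Mean CPM was 772 ± 199 for WT and 665 ± 84.0 for KO (SD, n = 4), a log2 difference of -0.21 ± 0.20 (SE; edgeR adjusted p = 0.551). The exact two-sided permutation test of 4 against 4 libraries gave p = 0.429, where 0.0286 is the smallest it can give. With 6 libraries the log2 difference was -0.29 ± 0.13 (adjusted p = 0.206), and without WT replicate 3 alone it was -0.38 (adjusted p = 0.217). The direction depended on the scaling: with scaling by total counts alone, which moved the median of all genes from 0.00 to 0.26, the Kcnk3 value was 0.04. In WT replicate 3 the 10 brown adipocyte markers summed to 13400 CPM, as in WT replicate 1, and the 8 general adipocyte markers to 22900 CPM, beside 25200 to 26800 CPM in the other WT libraries. Ucp1, Cidea, Lipe, Pparg, Pnpla2, Cpt1b, Fabp4 and Cidec each had their lowest WT value there. Adrb3, Dio2, Elovl3, Cox8b, Cox7a1 and Adipoq had theirs in another WT library. The part of adipocyte content in the Kcnk3 value was not tested. Beside it, Ucp1, the uncoupling protein of brown fat, lay below all WT libraries in all 4 KO libraries, with a log2 difference of -0.88 ± 0.25 (adjusted p = 0.131).

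The other 2-pore-domain members were read at far lower levels. Kcnk6, a leak channel found in vessels and many epithelia, read 5.16, 6.20, 7.00 and 7.86 CPM in WT and 11.0, 6.52, 11.6 and 10 CPM in KO. KO replicate 2 lay inside the WT range and the other 3 KO libraries above it. Its log2 difference was 0.58 ± 0.22 (edgeR adjusted p = 0.187) and 0.76 ± 0.20 with 6 libraries (adjusted p = 0.0691). Kcnk2, a stretch- and lipid-sensitive leak channel, read 1.02, 0.313, 1.51 and 1.23 CPM in WT. In KO it read 0.300, 0.0447, 0.535 and 0.0246 CPM, so WT replicate 2 fell within the KO range. Its log2 difference was -2.17 ± 0.84 (adjusted p = 0.192) on between 1 and 49 reads per library. Kcnk2 reached 10 reads in all 4 WT libraries and in 2 KO libraries, so a lower KO value was partly built into its selection. Kcnk4, a mechanically gated leak channel, differed by -0.50, and Kcnk5 and Kcnk13 each by 0.05, with standard errors of 0.46 to 0.69. For these 3 the groups overlapped.

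Kcne3 and Kcnc4 were the members called with 6 libraries. Kcne3 encodes a small single-span subunit that modifies voltage-gated channels, among them the one encoded by Kcnc4, with which it is known to pair in skeletal muscle. Kcnc4 encodes a fast voltage-gated channel of muscle and nerve. The pair were chosen for description with these results already known.

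Kcne3 (ENSMUSG00000035165) had 4, 6, 10 and 8 reads in WT replicates 1 to 4 and 40, 14, 31 and 42 reads in KO. It met the count rule through KO, since only WT replicate 3 reached 10 reads, so a difference in this direction was partly built into its selection. On the CPM scale it read 0.120, 0.188, 0.335 and 0.201 in WT and 0.922, 0.313, 0.83 and 1.04 in KO. In KO, 3 libraries lay above all WT libraries, and KO replicate 2 lay just under WT replicate 3. Mean CPM was 0.211 ± 0.0899 for WT and 0.775 ± 0.319 for KO (SD, n = 4), a 3.67-fold ratio. The log2 difference was 1.87 ± 0.52 (SE; edgeR adjusted p = 0.123, unadjusted p = 0.00544). With 6 libraries it was 2.42 ± 0.50 (adjusted p = 0.0399). The exact two-sided permutation p was 0.0571 with 8 libraries, and with 3 against 3 it was 0.1, the smallest that comparison allows.

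Kcnc4 (ENSMUSG00000027895) read 1.41, 0.783, 15.3 and 1.51 CPM in WT replicates 1 to 4 and 3.39, 0.536, 4.68 and 5.15 CPM in KO replicates 1 to 4. WT replicate 3 was the highest library and KO replicate 2 the lowest, each on the opposite side from the rest of its group. With all 8 libraries the log2 difference was -0.47 ± 1.06 (SE; edgeR adjusted p = 0.821). The difference of mean log2 CPM, which weights the libraries equally, was 0.19, with an exact two-sided permutation p of 0.886. The sign with all 8 libraries thus also depended on the model. Without WT replicate 3 it was 1.47 (adjusted p = 0.288), without KO replicate 2 it was -0.10 (adjusted p = 0.967), and without both it was 1.83 ± 0.33 (adjusted p = 0.0335). In the 6 libraries mean CPM was 1.23 ± 0.393 for WT and 4.41 ± 0.913 for KO (SD, n = 3), a 3.57-fold ratio. Skeletal muscle markers summed to 48400 CPM in WT replicate 3, and their part in the Kcnc4 value was not tested.

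The low values of Kcne3 and Kcnc4 in KO replicate 2 came with a low level of endothelial markers. The 10 endothelial markers summed to 1460 to 1970 CPM in WT, to 1740 CPM in KO replicate 2 and to 2290, 2960 and 3050 CPM in KO replicates 3, 4 and 1. The 10 mural and smooth muscle markers showed the same split among KO libraries, at 803 CPM in KO replicate 2 and 1230 to 1320 CPM in the others, beside 963 to 2680 CPM in WT. The WT maximum of the mural list was WT replicate 3, where Des, a gene shared with skeletal muscle, alone read 1800 CPM, and the other WT libraries reached at most 1180 CPM. With 6 libraries 10 of 10 endothelial markers lay higher in KO and edgeR called 4 of them (40%, against 1.82% of all genes called higher). Of the mural markers 8 of 10 lay higher, 0 were called higher and 1, Des, was called lower (10%, against 1.5% of all genes). Their part in the Kcne3 and Kcnc4 values was not tested.

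**Figure D3:**
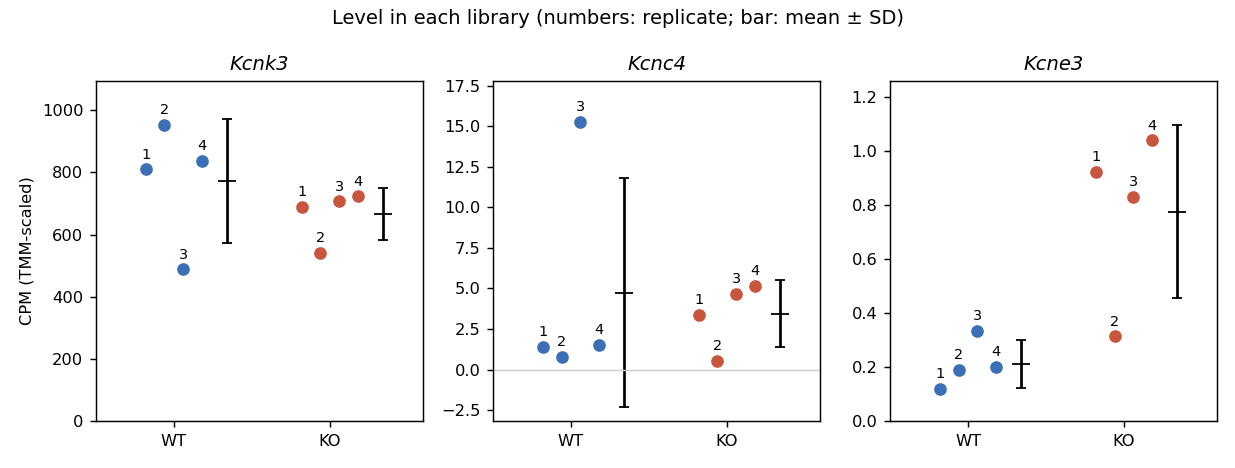
CPM of Kcnk3, Kcnc4 and Kcne3 in each library (points numbered by replicate), with the mean and SD of each group (n = 4) as a bar. WT replicate 3 is the lowest point for Kcnk3 and, at 15.3 CPM, the highest for Kcnc4, and KO replicate 2 is the lowest KO point in all 3 panels.

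The other genes of the muscle channel list were read mainly in WT replicate 3. Kcna7 encodes a voltage-gated channel of skeletal and heart muscle, Kcnj2 and Kcnj12 encode the classical inward rectifiers that hold the resting potential of muscle, and Kcnj11 encodes the pore of the ATP-sensitive channel of muscle and pancreatic beta cells. Kcna7 read 33.4 CPM in WT replicate 3 and 0.223 to 1.08 CPM elsewhere. Kcnj12 read 20.5 CPM there and 0.197 to 0.715 CPM elsewhere. Kcnj2 read 30.3 CPM there and 0.240 to 1.56 CPM elsewhere. In WT replicate 3 these genes were 30.9, 28.7 and 19.5 times the highest other library, respectively, and Kcnj11, at 49.3 CPM, was 10.4 times the highest.

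A single library thus carried 91.7% of the summed CPM of Kcna7, 89.8% of Kcnj12, 82.8% of Kcnj2 and 75.9% of Kcnj11. Kcng4, a modifier subunit that forms no channel alone and was not on the muscle list, followed with 65.3% of its summed CPM in WT replicate 3. These 5 members were the ones at more than 5 times the highest other library in WT replicate 3, beside 1.68% of all tested genes. Kcnq5, of the slow non-inactivating family, was close to that limit with 11.8 CPM in WT replicate 3 and 1.43 to 2.47 CPM elsewhere. Kcne3 is the exception on the muscle list, at 0.335 CPM in WT replicate 3, below 3 of the KO libraries.

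A pair of channel genes outside the count rule, named after their values were seen, were read almost only in WT replicate 3. Kcnc1, a fast voltage-gated channel related to Kcnc4, had 619 reads in WT replicate 3 and at most 12 in any other library. Kcnma1, the large-conductance calcium-activated channel, had 410 reads there and at most 12 elsewhere.

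**Figure D4:**
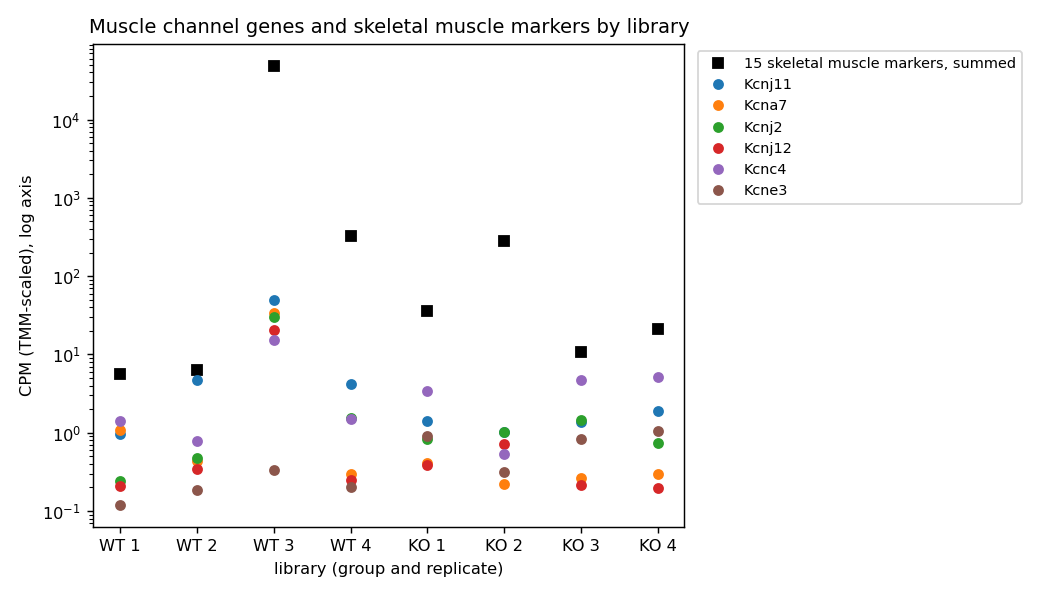
CPM on a log axis of the 6 muscle channel genes (circles) and of 15 skeletal muscle markers summed (squares) in each library. The squares reach 48400 CPM in WT replicate 3, where every channel gene but Kcne3 also has its highest point.

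The differences between genotypes for these genes became smaller or turned when that library was left out. With all 8 libraries the log2 differences were -4.85 ± 1.74 for Kcna7, -3.79 ± 1.70 for Kcnj12, -3.37 ± 1.19 for Kcnj11 and -3.01 ± 1.51 for Kcnj2 (edgeR adjusted p from 0.185 to 0.282). Without WT replicate 3 Kcnj2 and Kcnj12 turned to 0.40 and 0.50 (adjusted p = 0.754 and 0.680), while Kcnj11 and Kcna7 stayed lower in KO at -1.21 and -1.0 (adjusted p = 0.256 and 0.367; unadjusted p = 0.0408 and 0.112). In the 6 libraries Kcna7 differed by -0.88 ± 0.61 and Kcnj11 by -1.07 ± 0.52 (adjusted p = 0.430 and 0.252). DESeq2's call of Kcnj11 (-3.38, adjusted p = 0.0290) used all 8 libraries, WT replicate 3 included.

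Since Kcnj2 and Kcnj12 were high in the same library, the 250 bases before their RefSeq start sites (build GRCm38.p6, plus strand) are shown, with those before the downstream of the 2 RefSeq starts of Kcne3, which did not follow them. RefSeq entries matched 5 of the 6 muscle list genes, all but Kcnj11, and only windows free of annotated exons of the same gene are printed. Capitals mark CANNTG, the general E-box pattern, which reads the same on both strands. Sites of muscle regulatory factors have this pattern, but not every match is such a site.
Kcnj2, chr11:111065914-111066163: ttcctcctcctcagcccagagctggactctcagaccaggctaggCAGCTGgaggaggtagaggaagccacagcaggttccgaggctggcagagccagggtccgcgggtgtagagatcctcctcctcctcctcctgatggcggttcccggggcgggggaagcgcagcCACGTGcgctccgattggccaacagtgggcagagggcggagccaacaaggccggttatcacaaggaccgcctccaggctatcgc
Kcnj12, chr11:61065554-61065803: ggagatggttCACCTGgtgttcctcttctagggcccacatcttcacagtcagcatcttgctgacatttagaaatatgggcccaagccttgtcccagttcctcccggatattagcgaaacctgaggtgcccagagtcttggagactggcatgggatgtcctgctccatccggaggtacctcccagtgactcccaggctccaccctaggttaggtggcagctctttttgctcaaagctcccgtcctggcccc
Kcne3, chr7:100178433-100178682: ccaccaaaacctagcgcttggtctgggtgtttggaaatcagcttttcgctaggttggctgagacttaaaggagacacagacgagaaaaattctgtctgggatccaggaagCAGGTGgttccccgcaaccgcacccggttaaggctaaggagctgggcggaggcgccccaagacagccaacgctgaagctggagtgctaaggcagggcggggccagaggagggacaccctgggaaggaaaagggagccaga
The E-box occurred 2 times in the Kcnj2 window and once in each of the others. It is common, being present in 66.2% of the 32851 promoter windows of this length, so a match here describes the sequence only. The MEF2 core (CTA, 4 bases of any kind, TAG), TATAAA and TGACGTCA (the cyclic AMP response element), sought on both strands, were not in these 3 windows and occur in 3.20%, 12.4% and 1.55% of all windows.

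Among the remaining voltage-gated members, Kcna5 was the most abundant. It encodes a delayed rectifier of smooth muscle and heart and read 26.1, 73.2, 37.8 and 56.9 CPM in WT and 77.2, 63.2, 84.0 and 99.1 CPM in KO. All KO libraries but replicate 2 lay above all WT libraries, and the WT libraries themselves spread widely. The log2 difference was 0.74 ± 0.30 (edgeR adjusted p = 0.205) with 8 libraries and 0.74 ± 0.34 (adjusted p = 0.251) with 6.

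Kcna1 and Kcna2 encode the delayed rectifiers of myelinated axons. Kcna1 read 2.85, 2.32, 2.31 and 2.24 CPM in WT and 5.95, 3.31, 3.39 and 3.89 CPM in KO, with no overlap between the groups. Its log2 difference was 0.77 ± 0.25 (edgeR adjusted p = 0.156) and 0.84 ± 0.29 with 6 libraries (adjusted p = 0.124). Kcna2 differed by 0.43 ± 0.28 and Kcna6, a further axonal member of the family, by 0.49 ± 0.25, both with overlap. KO replicate 1 was the highest library for Kcna1, Kcna2 and Kcna6, and also for Kcnc2, a fast-spiking neuron channel that read 7.54 CPM there and 1.89 to 3.05 CPM elsewhere. The 8 neuronal markers summed to 10 CPM in that library and 3.04 to 8.38 CPM in the others, and the 8 Schwann and glial markers to 137 CPM, within the WT range of 110 to 156 CPM. With 8 libraries 6 of 8 Schwann and glial markers lay higher in KO and 2 lower. Of the 6, 2 had an unadjusted p under 0.05 (25%, against 10.4% of all genes). With 6 libraries 4 of 8 lay higher and 4 lower. The part of the neuronal and the glial markers in these values was not tested.

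Kcns3, a silent subunit that modifies other voltage-gated channels, lay lower in all KO libraries of the 6. It read 13.0, 13.7, 8.07 and 12.7 CPM in WT and 8.57, 5.54, 9.97 and 7.39 CPM in KO. WT replicate 3 fell inside the KO range. Its log2 difference was -0.59 ± 0.23 (edgeR adjusted p = 0.192), and -0.60 ± 0.17 with 6 libraries (adjusted p = 0.0787).

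The other voltage-gated members missed the threshold. Kcnd3, a transient A-type channel, differed by 0.49 ± 0.46, and its KO libraries lay at 2.53, 2.67 and 2.46 CPM except for replicate 2, at 0.536 CPM. Kcnh2, the rapid delayed rectifier of heart, differed by 0.83 ± 0.50 and by 1.45 ± 0.50 with 6 libraries (edgeR adjusted p = 0.126). Kcnq5 differed by -1.23 ± 0.71 with 8 libraries and by 0.20 ± 0.34 with 6. Its negative value therefore required WT replicate 3. The A-type channels Kcnd1 and Kcnd2 differed by 0.42 ± 0.38 and -1.20 ± 0.67, both with overlap. The log2 difference of Kcng4 was -2.07 ± 1.03, and -0.15 ± 0.79 in the 6 libraries. Kcnq1 differed by 0.26 ± 0.32. Its antisense RNA Kcnq1ot1 read 6.45, 3.41, 6.66 and 6.66 CPM in WT and 12.0, 6.55, 8.18 and 8.58 CPM in KO, a log2 difference of 0.61 ± 0.27 (adjusted p = 0.227). Whether the counting used strand is not given in the sources used here, so reads of this overlapping pair may be split between them.

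**Figure D5:**
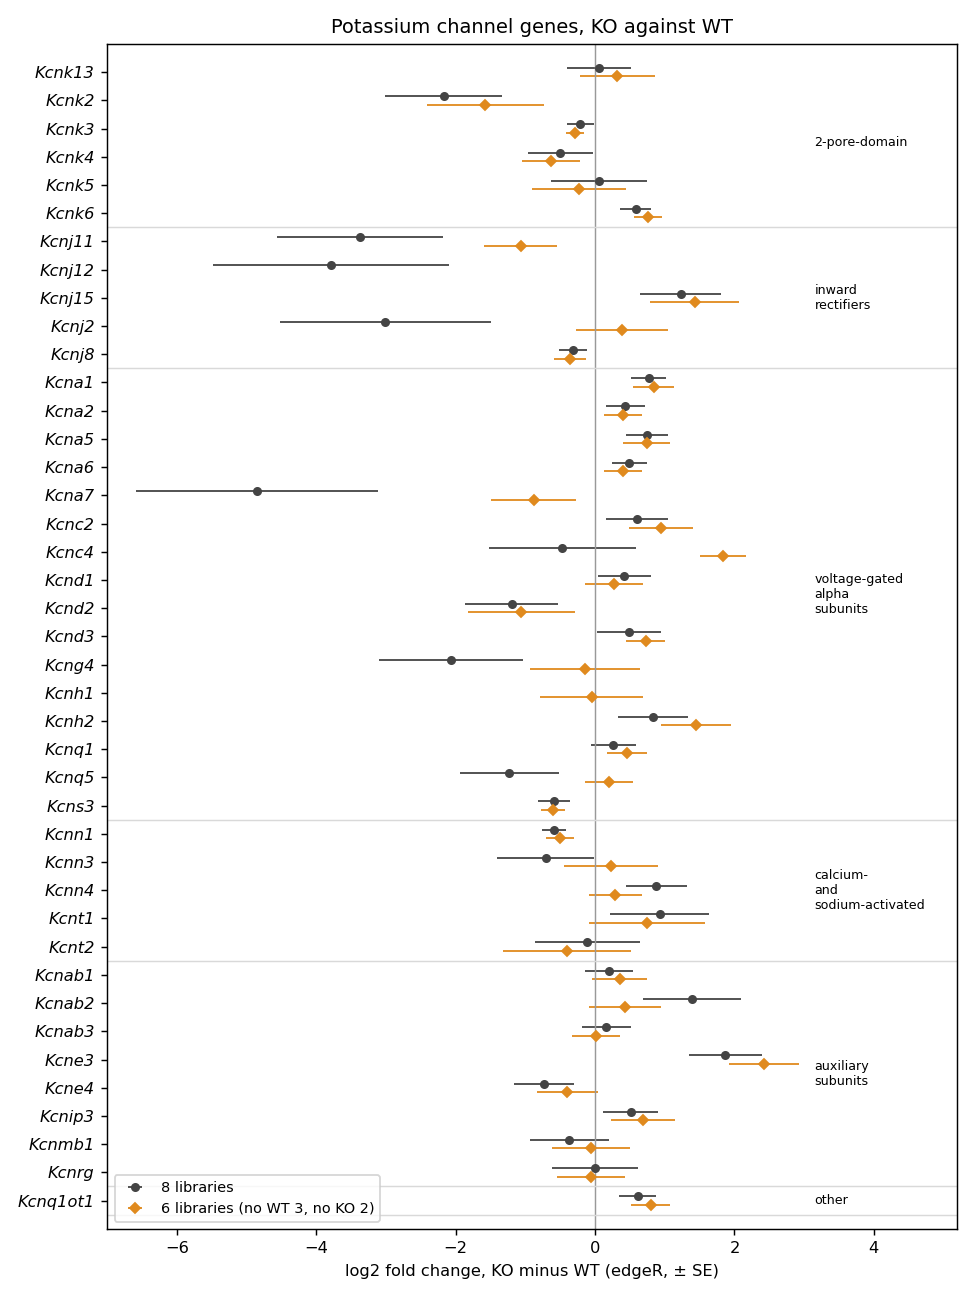
Log2 fold change (KO minus WT, edgeR, with SE) of 41 members by class, for all 8 libraries (circles) and for 6 (diamonds). Circles and diamonds lie close for most members and part for the genes high in WT replicate 3, with Kcnc4 moving from -0.47 to 1.83. Kcnh1 was tested only with 6 libraries and Kcnj12 only with 8.

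Among the inward rectifiers, Kcnj8 was the most abundant. It encodes the pore of the ATP-sensitive channel of vascular smooth muscle and pericytes, which assembles with the sulfonylurea receptor encoded by Abcc9. Kcnj8 read 45.4, 26.9, 36 and 24.1 CPM in WT and 22.1, 31.3, 26.7 and 26.4 CPM in KO. The groups overlapped, with a log2 difference of -0.32 ± 0.20 (edgeR adjusted p = 0.373). Abcc9 read 50.8 to 94.6 CPM in WT, highest in WT replicate 3, and 55.8 to 74.6 CPM in KO, and differed by 0.01 ± 0.20. With 6 libraries Abcc9 differed by 0.31 ± 0.13 (edgeR adjusted p = 0.175) and Kcnj8 by -0.36 ± 0.23 (edgeR adjusted p = 0.386). Kcnj15, a rectifier known mainly from kidney and other epithelia, read 0.180, 1.07, 0.871 and 1.38 CPM in WT and 3.71, 1.16, 1.5 and 1.90 CPM in KO, and differed by 1.23 ± 0.58 (adjusted p = 0.247).

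Of the calcium-activated channels, Kcnn1, a small-conductance channel, lay lower in KO, with little spread in WT and more in KO. It read 11.2, 10.5, 12.1 and 11.4 CPM in WT and 6.38, 6.50, 7.11 and 9.91 CPM in KO. After TMM scaling no KO library reached the lowest WT library, and WT replicate 3 did not stand apart for this gene. The means were 11.3 ± 0.626 and 7.48 ± 1.65 CPM (SD, n = 4), and the log2 difference was -0.59 ± 0.17 (SE; edgeR adjusted p = 0.132, DESeq2 adjusted p = 0.0347). With 6 libraries it was -0.50 ± 0.20 (edgeR adjusted p = 0.176), and with each library left out in turn it ranged from -0.76 to -0.53. With total library size only it was -0.34 (edgeR adjusted p = 0.198). The TMM factors were 0.8785 to 0.9482 in WT and 1.047 to 1.155 in KO, so TMM scaling lowered KO against WT. Relative to library totals alone, KO replicate 4 (402 of 37478053 reads) lay above all WT libraries.

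Of the other members of this class, Kcnn3, a further small-conductance channel, differed by -0.71 ± 0.70, Kcnt1, a sodium-activated channel, by 0.93 ± 0.71 and its relative Kcnt2 by -0.11 ± 0.76. The groups overlapped for all 3. Kcnn4, the intermediate-conductance channel of lymphocytes and red cells, read 5.90 CPM in KO replicate 2 and 1.27 to 2.91 CPM in every other library. Its log2 difference was 0.88 ± 0.44 with all libraries and 0.29 ± 0.38 with 6. Kcnab2, a cytoplasmic beta subunit of voltage-gated channels, followed the same library. It read 2.01, 2.22, 1.84 and 0.452 CPM in WT and 2.21, 10.8, 2.30 and 1.75 CPM in KO. It differed by 1.39 ± 0.70 (edgeR adjusted p = 0.272) with 8 libraries and by 0.43 ± 0.52 with 6. T and NK cell markers summed to 169 CPM in KO replicate 2 and to at most 36.1 CPM elsewhere, and with 8 libraries 10 of 10 lay higher in KO, 6 of them at an unadjusted p under 0.05. In the same library macrophage markers summed to 567 CPM against at most 307 CPM. Their part in the Kcnn4 and Kcnab2 values was not tested.

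The remaining auxiliary subunits overlapped between the groups. Kcne4, a relative of Kcne3, differed by -0.74 ± 0.43, the opposite sign from Kcne3. Kcnip3, a calcium-binding partner of A-type channels, differed by 0.51 ± 0.39, Kcnab1 by 0.20 ± 0.34, Kcnab3 by 0.16 ± 0.35, Kcnmb1, the smooth muscle subunit of the large-conductance channel, by -0.37 ± 0.57, and Kcnrg by 0.00 ± 0.62. As a class, 6 of 8 auxiliary subunits lay higher in KO, Kcnrg at 0.00 included, beside 7017 of all 13901 tested genes. Of the 8, 1, Kcne3, lay higher at an unadjusted p under 0.05 (12.5%, against 10.4% of all genes).

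Genes that work beside potassium channels were read as 4 further lists, chosen with earlier results of these data known. Of 46 tested genes, edgeR called 0 with 8 libraries and 0 of 45 with 6. At an unadjusted p under 0.05, 3 lay higher (6.52%, against 10.4% of all genes) and 2 lower (4.35%, against 11.1%) with 8 libraries. With 6 libraries 7 lay higher (15.6%, against 11.7%) and 2 lower (4.44%, against 11.4%). With 8 libraries the sodium-potassium pump, which builds the gradient that the channels use, had 3 of 12 genes higher and 9 lower (median -0.37). With 6 libraries it had 4 of 11 higher and 7 lower (median -0.20). Atp1b1, a beta subunit, read 75.5 CPM in WT replicate 3 and 6.87 to 16.1 CPM elsewhere, so its -1.36 ± 0.68 became -0.20 with 6 libraries. Fxyd5, a regulator of the pump, differed by 0.59 ± 0.20 (edgeR adjusted p = 0.158).

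With all 8 libraries, chloride cotransporters and their kinases had 8 of 12 genes higher and 4 lower (median 0.13). Wnk4, a kinase that controls the cotransporters, differed by 0.93 ± 0.32 (edgeR adjusted p = 0.163). Channel partners outside the Kcn names had 4 of 12 higher (median -0.08). Akap7, a protein kinase A anchor, had the smallest p among them, at -0.31 ± 0.12 (adjusted p = 0.195). Voltage-gated calcium channel genes had 7 of 10 higher (median 0.41) and none at an unadjusted p under 0.05. Among these, Cacnb1, a subunit of the muscle calcium channel, read 74.1 CPM in WT replicate 3 and 5.43 to 9.77 CPM elsewhere. With 6 libraries 10 of 12 cotransport genes (median 0.29) and 5 of 12 channel partners (median -0.06) lay higher. Of the calcium channel genes 9 of 10 then lay higher (median 0.46), 1 of them at an unadjusted p under 0.05 (10%, against 11.7% of all genes).

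The count rule has a sharp edge. Just inside it, with 10 or more reads in exactly 4 libraries, were Kcnh1 (0.0894 to 0.454 CPM) and Kcnt2 (0.0493 to 0.470 CPM). Just outside, with 3 such libraries, were Kcnip2 (0.0493 to 0.357 CPM), Kcnj10 (0.00 to 0.428 CPM), Kcnk1 (0.00 to 0.402 CPM) and Kcnu1 (0.00 to 0.670 CPM). Of the 44 members, 30 had at least 10 reads in all 8 libraries. Kcne3, Kcnj2 and Kcnj15 had them in all KO libraries and not in all WT libraries, and Kcnk2 and Kcnd2 in all WT libraries and not in all KO libraries. For such genes the count rule favours a difference toward the group in which all libraries had them.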

How the data were processed

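The deposited table holds raw counts per gene and library as whole numbers. Per the labels' protocols, polyadenylated RNA was made into libraries that carry dUTP in their second cDNA strand. GRCm39 is the build that the submitters' processing notes name. Which aligner, counting program and annotation they used is not given in the sources used here. Among counts of 1 to 20, between 69.8% and 71.8% were even in each library, beside 49.4% to 51.0% among counts of 101 to 1000. No source says whether both mates of a read pair were counted. If they were, fewer fragments than reads lie behind the rule of 10 reads and behind low counts such as those of Kcne3.

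Symbols came from GENCODE M21 and were found for 18321 genes. Exon lengths came from the same release, which may differ from the authors' annotation. Genes were kept by filterByExpr by group (13901 tested) and compared by edgeR 4.0.16 in R 4.3.3, with TMM scaling, the robust quasi-likelihood F test, group as the only term and Benjamini-Hochberg adjustment over all tested genes at 0.05. Each standard error is the log2 fold change divided by the square root of F. Permutation tests used log2 CPM in scipy 1.17.1. Alternatives used DESeq2 1.42.0, limma 3.58.1, other scalings and filters, a replicate block and left-out libraries. Tests were checked on simulated counts.

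Members and lists were chosen with earlier results of these data known. Statistics are given for Kcnk3, Kcnc4, Kcne3, the muscle channel list, the 10 members with the smallest p, members called with 6 libraries, the most abundant member of each class and those at the edge of the count rule. Other members are given by their values, and some genes are not reported here. Figures were drawn with matplotlib 3.10.9.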

Additional observations from a re-analysis of the deposited data

Results flagged for a closer look

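Among 18 named members in 2 groups of 4, a library lay far from the other 3 in 8 cases by Dixon's criterion (the gap to the nearest library over the group's range). Chance alone gives about 1 in 20 groups, but the muscle channel genes, which make up 5 of the 8, were chosen because WT replicate 3 was known to hold muscle markers, so the number of cases is only a description. In 5 of the 8 it was WT replicate 3 that read highest in WT: Kcnj11 at 49.3 CPM (next 4.76), Kcna7 at 33.4 (next 1.08), Kcnj2 at 30.3 (next 1.56), Kcnj12 at 20.5 (next 0.345) and Kcnc4 at 15.3 CPM (next 1.51). Skeletal muscle markers summed to 48400 CPM in that library. In KO, replicate 2 read 10.8 CPM of Kcnab2 where the next library read 2.30, and T and NK cell markers summed to 169 CPM there. In WT, replicate 1 read 2.85 CPM of Kcna1 (next 2.32), and replicate 2 read 3.41 CPM of Kcnq1ot1, below the others at 6.45 to 6.66 CPM.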

How the results depend on the processing

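The number of members called, 0 with 8 libraries in edgeR, was 2 with 6 libraries (Kcnc4 and Kcne3), 2 with DESeq2 (Kcnn1 and Kcnj11), 2 with limma-voom and quality weights (Kcne3 among them) and 1 with total library size only (Kcne3). Over all genes these settings called 461, 1113, 911 and 882 genes in that order, where edgeR with 8 libraries called 0. With each library left out in turn, 0 members were called. Over all genes, 361 were called without KO replicate 2 and at most 3 without any other library. Kcne3 differed by 2.42 with 6 libraries (adjusted p = 0.0399), 2.12 with quality weights (0.0334) and 2.13 with total library size only (0.0473). Its selection through the KO libraries favours this direction, so an unchanged sign says little. Its range with 1 library left out was 1.68 to 2.16, and with CPM of at least 1 in 4 libraries it was not tested. Kcnc4 reversed to 1.83 with 6 libraries, 1.38 with quality weights, 0.20 with limma-voom, 0.23 with a replicate block and 1.47 without WT replicate 3, from a lowest left-out value of -0.82. Kcnk3 reversed to 0.04 with total library size only, and ranged from -0.38 to -0.10 with 1 library left out. Kcnj2 reversed to 0.39 with 6 libraries, 0.04 with quality weights and 0.40 without WT replicate 3 (lowest left-out value -3.41), and Kcnj12 to 0.50 without that library (lowest -4.28). Kcnt2, from -0.11, reversed to 0.16 with total library size only, 0.02 without KO replicate 3, 0.22 without KO replicate 4 and 0.33 without WT replicate 2 (lowest left-out value -0.47).

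The members' median was 0.26 with 6 libraries and 0.29 with total library size only, beside 0.01 and 0.26 over all tested genes. With 1 library left out it was -0.04 to 0.25, the last without WT replicate 3, where all genes had 0.03. The counts below with total library size only carry the shift of all genes. Members lower at an unadjusted p under 0.05 numbered 3 with the stricter filter, the replicate block and total library size only, and 1 to 8 with 1 library left out. Those higher numbered 8 with the replicate block, 9 with total library size only and 2 to 7 with 1 left out. The shares of all tested genes at an unadjusted p under 0.05 in these settings were not computed. These counts therefore cannot be set against the rate over all genes. Related genes called numbered 1 (Fxyd5) with total library size only. Whether the replicate numbers pair the samples is not given in the sources used here. Deviations of same-numbered libraries correlated from -0.13 to 0.22, above 0.1 in 1 of 4 pairs. Over all pairs of a WT and a KO library the range was -0.299 to 0.224. Such correlations cannot decide whether samples were paired. The replicate block called 0 members. With at least 1 read in 4 libraries 67 genes would be members, and with 10 reads in all 8, 30. Causes of these shifts were not tested beyond the libraries named. Low read numbers, such as the 4 to 42 of Kcne3, limit the precision of their fold changes.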
